A study of Homo sapiens with 24 samples.

Results

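ISG15 and 8 other genes of the interferon response (IFI6, IFI35, IFITM1, IFITM2, IFITM3, STAT2, IRF7 and IRF9) were followed in A549, a cell line long established from a human lung carcinoma. They are 9 of the 58302 genes listed for these cells and were taken by gene symbol. ISG15 was chosen by its measured level in these same libraries, which with metformin differed between cells with and without added GPD1, so its values and those of the other 8 genes are described, without a test, in every comparison that this choice used. The rule held no threshold.

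GPD1 is the cytosolic enzyme that turns dihydroxyacetone phosphate into glycerol-3-phosphate while oxidising NADH, and metformin is a biguanide diabetes drug that inhibits respiratory complex I. The design asked how raised GPD1 acts on the cells with and without the drug. The 4 groups were A549 cells with an empty lentivirus and no drug, the same cells in medium with 10 mM metformin, A549 cells with a GPD1-overexpression lentivirus and no drug, and those cells in 10 mM metformin. Every group, controls included, had therefore been transduced with a lentivirus. The labels state neither the promoter of the vector, nor whether the cells were a pool or 1 clone, nor the hours of treatment. Each group had 3 libraries of polyadenylated RNA labelled as replicates, and nothing says that they came from separate cultures, so p-values reflect only how far these libraries differ from each other, which may be technical. The series has 24 samples, and its 12 libraries of 786-O kidney cancer cells were not analysed here.

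Interferons are secreted proteins that bind paired receptors on the cell surface. Janus kinases on the receptors then phosphorylate STAT proteins such as STAT2, which joins IRF9 in the complex ISGF3, and this complex binds the interferon-stimulated response element (ISRE) in the promoters of many genes. ISG15 is one of the best known of these, a ubiquitin-like protein that is attached to other proteins by UBA7, UBE2L6 and HERC5, removed again by USP18, and also secreted. In epithelial cells of the airway the pathway is known as a defence against viruses.

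The libraries held 13.3 to 18.0 M counted reads or fragments, read from the steps between low values, so that 1 read on 1 kb was worth 0.0556 to 0.0752 FPKM (fragments per kilobase of exon, scaled to the library's total). GPD1 was at 0.0248 to 0.103 FPKM in the 6 vector libraries and at 13.3 to 16.8 FPKM in the 6 GPD1 libraries, as labelled. Genes of the mitochondrial genome held 30.2% to 33.2% of all FPKM in libraries without metformin and 10.3% to 14.9% with it. The other genes thus share a larger remainder in treated cells. Weighted by exon length, as reads are, this remainder moved less. Relative to its geometric mean over the libraries it was 0.96 to 0.982 without metformin and 1.03 to 1.04 with it. Of the epithelial markers, KRT8 was at 64.4 to 111 FPKM and KRT18 at 104 to 149, while EPCAM reached at most 1.57 and KRT19 0.0869. Of the alveolar type II markers, SFTPA1 was listed at 0 in all libraries and NKX2-1 reached 0.0549 FPKM, while ABCA3 was at 7.26 to 15.2 in every library and held most of the list's sum (7.35 to 15.5). CDKN2A and CDKN2B, known to be deleted in A549, were listed at 0 in all libraries, and their neighbour MTAP was at 0.189 to 0.602 FPKM.

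The summed level of 7 leukocyte markers was 2.36 to 3.19 FPKM in vector cells, 7.58 to 9.42 in vector cells with metformin, 3.56 to 4.02 in GPD1 cells and 5.93 to 8.11 in GPD1 cells with metformin. CD68, which many cell types express, held most of it (1.97 to 9.11 FPKM), while the T cell marker CD3E was listed at 0 in all libraries and the pan-leukocyte marker PTPRC reached 0.0299 FPKM. Plasmacytoid dendritic cells are the best known producers of interferon in blood. Their 4 markers summed to 0.351 to 1.21 FPKM, lowest in GPD1 cells with metformin (0.351 to 0.622). IL3RA held most of this sum (0.309 to 1.10 FPKM), while CLEC4C reached 0.0372 FPKM and LILRA4 was listed at 0 in all libraries.

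The upstream sequences of ISG15, IFI6 and IFITM3 are printed first because these 3 members all hold the same interferon motif, had group means of 2.13 to 4.48 FPKM without metformin, and differed widely in GPD1 cells with metformin (36.6, 5.79 and 3.31 FPKM). Each run holds the 250 bases before the RefSeq transcription start (GRCh38.p14), 5′ to 3′ on the strand of the gene, with matches to the ISRE core in capitals. They lie at chr1:1013247-1013496 (plus strand, ISG15), chr1:27672193-27672442 (minus strand, IFI6) and chr11:320861-321110 (minus strand, IFITM3).
ISG15: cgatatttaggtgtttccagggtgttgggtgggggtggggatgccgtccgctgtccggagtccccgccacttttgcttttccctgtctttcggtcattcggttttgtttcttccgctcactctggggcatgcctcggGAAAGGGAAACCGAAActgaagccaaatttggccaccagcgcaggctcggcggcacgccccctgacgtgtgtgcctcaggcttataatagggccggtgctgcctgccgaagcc
IFI6: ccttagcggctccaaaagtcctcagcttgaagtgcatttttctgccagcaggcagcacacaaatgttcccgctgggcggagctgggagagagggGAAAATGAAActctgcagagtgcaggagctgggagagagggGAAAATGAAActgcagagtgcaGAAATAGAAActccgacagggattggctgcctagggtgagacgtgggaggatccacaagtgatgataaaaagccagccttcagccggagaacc
IFITM3: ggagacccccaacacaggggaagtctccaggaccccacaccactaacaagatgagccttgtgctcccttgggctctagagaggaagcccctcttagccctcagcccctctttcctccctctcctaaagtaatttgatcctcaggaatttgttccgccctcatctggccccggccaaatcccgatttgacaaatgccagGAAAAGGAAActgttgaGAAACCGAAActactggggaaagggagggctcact
The ISRE was searched as GAAA, any 2 bases and GAAA again, on both strands, in windows of 300 bases from 250 before the start to 50 after it. The ISG15 window held 2 overlapping matches, GAAAGGGAAA from -113 to -104 and GAAACCGAAA from -107 to -98, counted from the base before the start as -1. IFI6 held 3 matches, 2 of them with the same letters, GAAAATGAAA, from -156 to -147 and from -115 to -106. IFITM3 held GAAAAGGAAA from -52 to -43 and GAAACCGAAA from -35 to -26, the second being the string found in ISG15. IFITM1 held 2 matches as well, one of which ran across the start, from -6 to 4. Of 35116 RefSeq promoters, 1255 (3.57%) held a match, against 4 of the 7 members with an entry in the table. The GAS element of interferon gamma signalling, searched as TTCNNNGAA on both strands, was found in 3 of those 7 (IFI35, IFITM1 and IRF9) and in 2689 of all promoters (7.66%). STAT2 held neither string.

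ISG15 (chromosome 1, 1001138-1014541, plus strand, 4 GENCODE 29 exon blocks) was the member with the largest difference between groups. Its level was 3.65, 3.09 and 3.82 FPKM in the vector libraries and 4.97, 5.35 and 6.15 FPKM in vector cells with metformin. In GPD1 cells it was 5.00, 4.33 and 4.10 FPKM, and with metformin it was 36.0, 36.6 and 37.1 FPKM. The 3 libraries that combined GPD1 with metformin stood far above the other 9, none of which passed 6.15 FPKM. Vector cells with metformin and GPD1 cells without it overlapped, and vector cells without the drug lay below both. The depth behind these values was about 48 to 91 reads per library in the lower 3 groups and about 494 to 596 in the highest. In bulk RNA, a larger share of cells with ISG15 RNA and more ISG15 RNA in each cell cannot be told apart.

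In GPD1 cells the mean of ISG15 was 36.6 ± 0.544 FPKM (SD, n = 3) with metformin and 4.48 ± 0.466 without it, 8.17-fold higher. In vector cells it was 5.49 ± 0.603 with metformin and 3.52 ± 0.384 without it, 1.56-fold higher. On the log2(FPKM + 1) scale used below, on which folds of weakly expressed genes are understated, the differences were 2.78 (SE 0.08) and 0.52 (SE 0.08), where the median of all 12607 genes tested was -0.20 and -0.10. Their difference, the interaction, was 2.26 (SE 0.12), and 12 of the genes tested had a higher one. ISG15 was chosen for this difference, so its size and high place follow from the choice and are given as a description. Under metformin, ISG15 was 6.67-fold higher in GPD1 cells than in vector cells, and without the drug it was 1.27-fold higher. When the totals were taken without mitochondrial genes, the difference with metformin in GPD1 cells was 2.71 and the interaction 2.26.

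**Figure D1:**
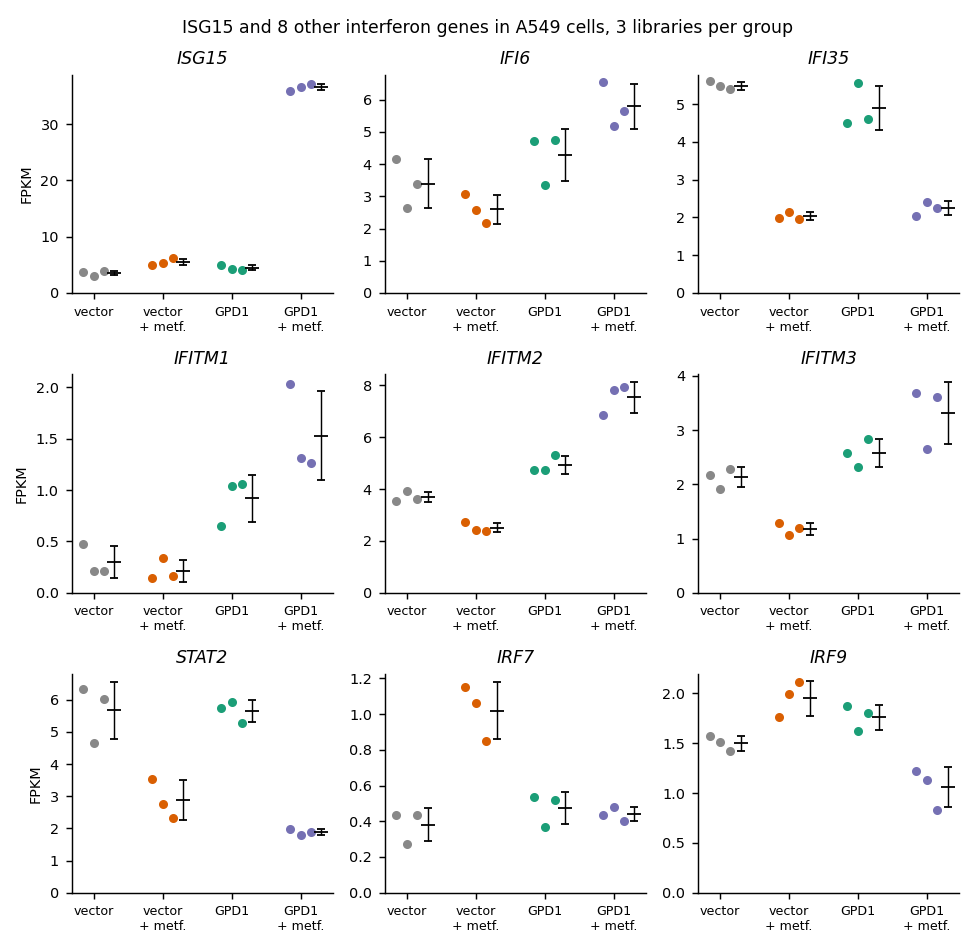
Level of each of the 9 genes (FPKM, linear axis from 0, a scale of its own in each panel) in the 12 libraries; each point is 1 library, and the bar beside each group is the mean ± SD of its 3 libraries. ISG15 stands at 36.0 to 37.1 FPKM in GPD1 cells with metformin and at 6.15 or lower elsewhere, while STAT2 is lowest in those cells (1.78 to 1.98).

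IFI6, a mitochondrial and endoplasmic reticulum protein known to restrain apoptosis and virus replication (chromosome 1, 27666061-27672218, minus strand), shared the order of ISG15 only at the top. It was at 4.16, 2.64 and 3.37 FPKM in vector cells and at 3.07, 2.57 and 2.16 with metformin. GPD1 cells had 4.72, 3.36 and 4.76 FPKM, and with metformin 6.56, 5.17 and 5.65. GPD1 cells with metformin lay above the other 3 groups, which overlapped with their neighbours in level. The mean with metformin was 1.35-fold that without in GPD1 cells and 0.767-fold in vector cells.

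The IFITM genes encode small membrane proteins that hinder the entry of viruses by fusion. They lie together on chromosome 11, IFITM1 at 313506-315272 and IFITM2 at 307631-315272 on the plus strand and IFITM3 at 319669-327537 on the minus strand. The IFITM1 locus lies within that of IFITM2 on the same strand and the 3 genes are close in sequence, so how reads were divided among them is uncertain. IFITM2 was at 3.55, 3.92 and 3.62 FPKM in vector cells and at 2.72, 2.43 and 2.39 with metformin. It was at 4.72, 4.74 and 5.32 FPKM in GPD1 cells and at 6.86, 7.83 and 7.93 with metformin. The 4 groups of IFITM2 did not overlap, and metformin stood with a lower level in vector cells (1.47-fold) and a higher one in GPD1 cells (1.53-fold).

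IFITM3 was at 2.18, 1.92 and 2.29 FPKM in vector cells and at 1.29, 1.07 and 1.19 with metformin. It was at 2.57, 2.31 and 2.83 FPKM in GPD1 cells and at 3.68, 2.65 and 3.60 with metformin. Its order of group means was that of IFITM2, but the 2 GPD1 groups overlapped. IFITM1 was weaker, at 0.209 to 0.477 FPKM in vector cells and 0.142 to 0.335 with metformin, which is about 2 to 9 reads per library. In GPD1 cells it was at 0.655 to 1.06 FPKM and with metformin at 1.26 to 2.03. Both GPD1 groups of IFITM1 lay above both vector groups, and its mean over all libraries, 0.741 FPKM, was under the minimum of 1 FPKM set for testing.

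IFI35, an interferon-induced protein that pairs with NMI (chromosome 17, 43006725-43014456, plus strand), had the opposite direction to ISG15 with metformin. It was at 5.60, 5.48 and 5.39 FPKM in vector cells and at 1.98, 2.15 and 1.96 with metformin. It was at 4.50, 5.57 and 4.61 FPKM in GPD1 cells and at 2.05, 2.42 and 2.25 with metformin. Treated libraries lay below untreated ones in both kinds of cell, by 2.71-fold and 2.19-fold in the means, and vector and GPD1 cells overlapped at both conditions.

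Of the proteins that carry the signal, STAT2 (chromosome 12, 56341597-56360155, minus strand) was at 6.33, 4.66 and 6.01 FPKM in vector cells and at 3.55, 2.77 and 2.32 with metformin. It was at 5.75, 5.92 and 5.27 FPKM in GPD1 cells and at 1.98, 1.78 and 1.89 with metformin. The cells with the highest ISG15 thus had the lowest STAT2, 3.0-fold below the same cells without the drug. IRF9, the DNA-binding partner of STAT2 (chromosome 14, 24161053-24166565, plus strand), was at 1.57, 1.51 and 1.42 FPKM in vector cells and at 1.76, 1.99 and 2.11 with metformin. It was at 1.87, 1.62 and 1.8 FPKM in GPD1 cells and at 1.22, 1.13 and 0.829 with metformin. IRF9 was also lowest in GPD1 cells with metformin, and its 2 differences with the drug were of opposite direction. Its locus lies within that of AL136295.5 on the same strand, and reads of the 2 cannot be told apart from these values. AL136295.5 was at 4.22 FPKM in vector cells and 2.65 with metformin, where IRF9 was higher. In GPD1 cells it was at 3.21 and 2.35 FPKM.

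IRF7 is the factor that drives later waves of interferon production (chromosome 11, 612553-615999, minus strand). It was at 0.437, 0.272 and 0.435 FPKM in vector cells and at 1.15, 1.06 and 0.847 with metformin. In GPD1 cells it was at 0.370 to 0.537 FPKM without the drug and at 0.402 to 0.481 with it. Vector cells with metformin stood apart, and the other 3 groups overlapped. With about 13 to 50 reads per library and a mean of 0.579 FPKM, IRF7 was under the minimum for testing.

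Over the 9 genes, the libraries with and without metformin did not overlap for 7 genes in vector cells. ISG15, IRF7 and IRF9 were higher and IFI35, IFITM2, IFITM3 and STAT2 lower, where 76.6% of all genes tested did not overlap (32.4% higher and 44.2% lower). In GPD1 cells they did not overlap for 7 genes either. ISG15, IFI6, IFITM1 and IFITM2 were higher and IFI35, STAT2 and IRF9 lower, where the share over all genes tested was 77.1% (27.5% higher and 49.6% lower). Between GPD1 and vector cells under metformin, 8 genes did not overlap. ISG15, IFI6 and the 3 IFITM genes were higher and STAT2, IRF7 and IRF9 lower, beside 64.8% of all genes tested (27.7% higher and 37.1% lower). The 9 genes were chosen on these same comparisons, so the counts describe them and show nothing particular to them. The comparisons also share libraries with each other.

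**Figure D2:**
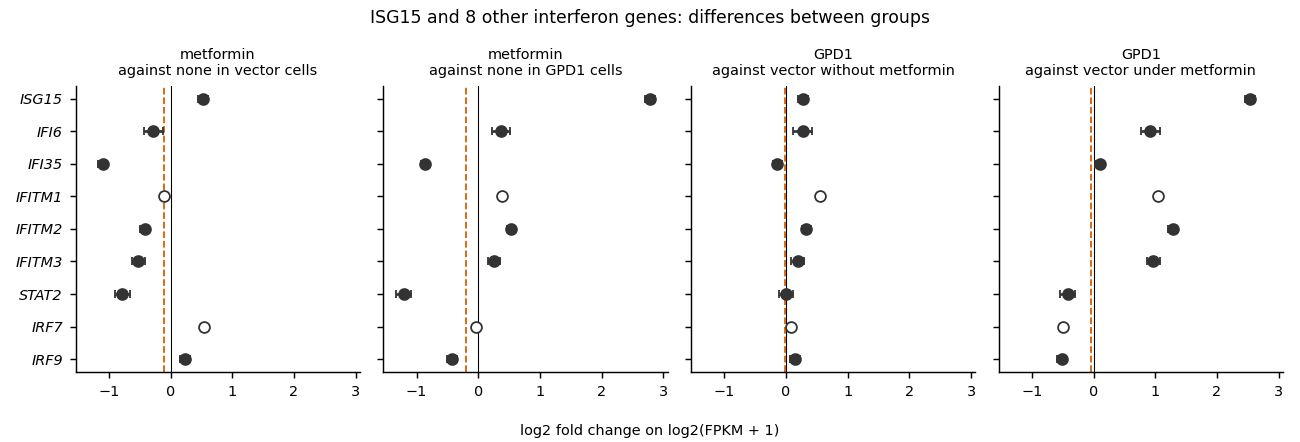
Differences of the 9 genes on the log2(FPKM + 1) scale in the 4 comparisons; filled points are genes that passed the minimum level, with the standard error of limma as bars, and open points are IFITM1 and IRF7, which did not. The dashed line is the median of all genes tested (from -0.20 to -0.01); ISG15 lies at 2.78 with metformin in GPD1 cells and at 2.54 for GPD1 against vector under metformin.

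GPD1 against vector without metformin is the comparison that the choice of genes did not use, except for ISG15. Of the 6 other members that passed the minimum level, IFITM2 was higher in GPD1 cells (log2 fold change 0.33, SE 0.07, limma, Benjamini-Hochberg adjusted p = 0.00502), with all 3 GPD1 libraries above all 3 vector libraries. The other 5 did not pass the threshold of 0.05. IFI6 had 0.27 (adjusted p = 0.248), IFITM3 0.19 (0.212), IRF9 0.14 (0.242), STAT2 0.00 (0.988) and IFI35 -0.14 (0.190). Of all genes tested, 21.3% passed in this comparison (9.99% higher and 11.3% lower), so that 1 of 6 is near the background. Without overlap, 5 of the 9 genes were higher (ISG15, the 3 IFITM genes and IRF9) and none was lower, beside 18.8% and 22.7% of all genes tested (41.4% in all). For IFITM3 the margin was narrow, from 2.29 FPKM in the highest vector library to 2.31 in the lowest GPD1 library. IFI35 passed when GPD1 untreated library 2 was left out (-0.22, adjusted p = 0.0341).

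The ligands that start the pathway were almost absent at this depth. Of 22 interferon genes, 13 were listed at 0 in all 12 libraries, IFNB1 among them, and 9 were above 0 in at least 1. Outside IFNE, no ligand passed 0.517 FPKM (IFNA1, about 6 reads in 1 GPD1 library without the drug). IFNL1, IFNL2, IFNL3 and IFNL4, the genes of type III interferons, reached at most 0.170 FPKM, about 2 reads. They were at 0 in all 3 libraries of GPD1 cells with metformin and equally in all 3 of vector cells without it, the groups with the highest and lowest ISG15. IFNE, an interferon known from epithelia of the reproductive tract, was at 1.92 to 3.17 FPKM in the 6 untreated libraries. With metformin it was at 0 in 4 of 6 libraries and reached 0.157 FPKM, a log2 fold change of -1.82 in vector cells and -1.69 in GPD1 cells. IFNE passed the minimum level for testing only through the untreated libraries, so its p-values are not given.

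Beyond the 9 genes, 160 other genes of the pathway had been listed by role, of which 89 reached the minimum level. With metformin, 27 of the 89 were called higher and 40 lower in vector cells, and 24 and 40 in GPD1 cells. Over all genes tested, 31.3% were called higher and 43.3% lower in vector cells (74.6% in all), and 26.1% and 48.0% in GPD1 cells (74.2% in all). GPD1 against vector gave 18 higher and 8 lower without metformin, and 36 higher and 25 lower under metformin. Without metformin, 9.99% of all genes tested were called higher and 11.3% lower (21.3% in all). Under metformin the shares were 25.0% and 35.0% (60.0% in all). The interaction called 25 of the 89 higher and 19 lower, beside 19.1% and 26.8% of all genes (45.9% in all). The median of the 89 was -0.17 with metformin in vector cells, -0.12 in GPD1 cells and 0.11 for GPD1 against vector under metformin, where that of all genes was -0.10, -0.20 and -0.05. Against the shares of all genes, the listed genes were called at much the same rate with metformin, and more of them were higher than lower for GPD1 against vector. Scaling by median-ratio factors moved the median of all genes with metformin to 0.10 in vector cells and 0.07 in GPD1 cells. With it the higher share of called genes among the 89 was 56.1% in place of 40.3% with metformin in vector cells and 57.1% in place of 37.5% in GPD1 cells. With upper-quartile factors it was 72.1% in place of 59.0% for GPD1 against vector under metformin. Over all genes called, the higher share moved from 42.0% to 56.2% in vector cells and from 35.2% to 54.3% in GPD1 cells with median-ratio factors, and from 41.7% to 54.5% under metformin and from 41.6% to 55.0% for the interaction with upper-quartile factors. Of the 89, none had an interaction of 1 or more on the log2 scale, and PIAS4 and TRIM25 had one of -1 or less.

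**Figure D3:**
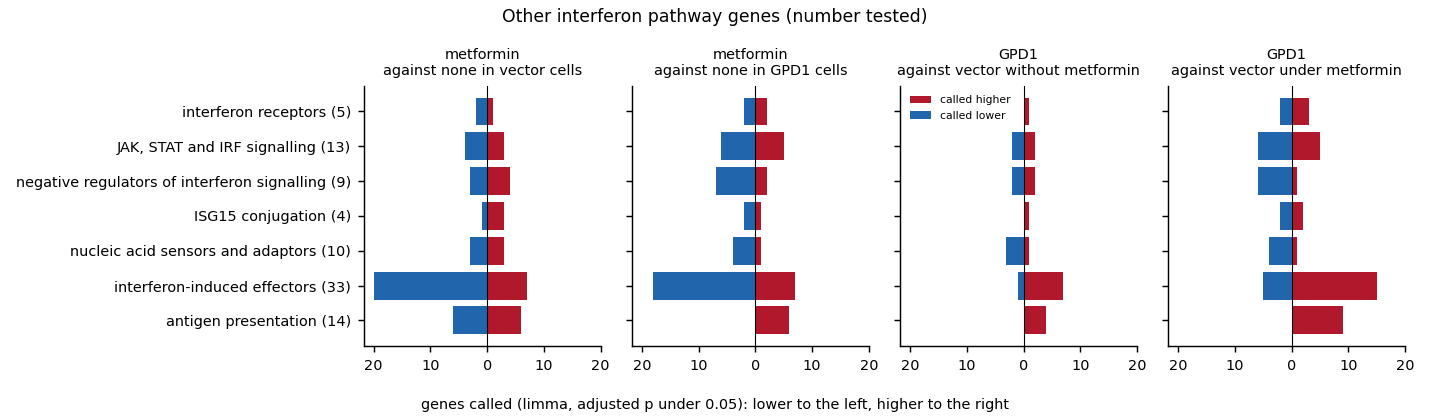
Number of genes called higher (red, to the right) and lower (blue, to the left) by limma at an adjusted p under 0.05 in each list of pathway genes, with the number tested in brackets; the 9 genes are left out and the ligands, with 1 gene tested, are not drawn. Interferon-induced effectors were lower with metformin for 20 of 33 genes in vector cells and 18 in GPD1 cells, and higher in GPD1 than in vector cells under metformin for 15.

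Of the receptors, 5 were tested. With metformin 1 was called higher and 2 lower in vector cells (all genes 31.3% and 43.3%). In GPD1 cells 2 were higher and 2 lower (all genes 26.1% and 48.0%). IFNGR1, a chain of the interferon gamma receptor, rose with metformin from 9.47 to 26.0 FPKM in vector cells (log2 fold change 1.37, limma adjusted p = 1.6e-09) and from 12 to 22.5 in GPD1 cells (0.86, adjusted p = 6.1e-08). Its partner IFNGR2 rose in GPD1 cells, from 8.45 to 13.7 FPKM (0.64, adjusted p = 1.2e-04), and had 0.10 in vector cells (adjusted p = 0.345). IFNAR1, a chain of the receptor for type I interferons, fell from 7.40 to 3.05 FPKM in vector cells (-1.06, adjusted p = 6.1e-08) and from 7.38 to 4.01 in GPD1 cells (-0.74, adjusted p = 1.1e-06). IFNAR2, the other chain of that receptor, fell in GPD1 cells (-1.21, adjusted p = 1.9e-05) and was named after its values were seen. In GPD1 cells both gamma receptor chains thus rose with metformin and both type I chains fell.

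Among 13 tested genes of JAK, STAT and IRF signalling, 5 were called higher and 6 lower with metformin in GPD1 cells (all genes 26.1% and 48.0%), and 3 and 4 in vector cells (all genes 31.3% and 43.3%). With median-ratio factors the counts were 5 and 4 in GPD1 cells and 7 and 2 in vector cells. Of all genes called with these factors, 54.3% and 56.2% were higher. IRF2, a factor that binds the same sites as IRF1, had the strongest positive interaction of the list (0.71, adjusted p = 5.0e-04), from 5.07 to 7.97 FPKM in GPD1 cells against 5.45 to 4.84 in vector cells. STAT6, which serves interleukin 4, fell in both, by 1.13 and 1.29 on the log2 scale (adjusted p = 7.2e-08 and 3.2e-08). IRF1 rose in both, from 1.16 to 2.87 FPKM in vector cells (0.84, adjusted p = 2.6e-07) and from 1.69 to 3.75 in GPD1 cells (0.82, adjusted p = 3.7e-07); it was named after its values were seen.

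Of 9 tested negative regulators, 2 were higher and 7 lower with metformin in GPD1 cells (all genes 26.1% and 48.0%), and 4 and 3 in vector cells (31.3% and 43.3%). The interaction called 2 higher and 5 lower (19.1% and 26.8%). With median-ratio factors the counts with metformin were 3 and 3 in GPD1 cells and 5 and 2 in vector cells. Of all genes called with these factors, 54.3% and 56.2% were higher. PIAS4, a SUMO ligase that restrains STAT signalling, was at 7.86 FPKM in vector cells and 11.8 with metformin, and at 6.46 and 4.18 in GPD1 cells. It rose in the first and fell in the second (log2 fold changes 0.53 and -0.53), and its interaction was -1.06 (limma adjusted p = 2.4e-05). PTPN1, a phosphatase that acts on JAK2 and TYK2, was at 15.9 FPKM in vector cells with metformin and at 8.27 in GPD1 cells with it (-0.86, adjusted p = 6.6e-07). Without metformin PTPN1 was at 16.0 and 12.5 FPKM (-0.33, adjusted p = 0.00338). SOCS3, a feedback inhibitor of JAK kinases, had an interaction of -0.54 (adjusted p = 1.5e-04).

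The enzymes that attach ISG15 differed in their levels and in their differences between groups. UBE2L6, its conjugating enzyme, rose from 9.86 to 12 FPKM with metformin in vector cells (log2 fold change 0.26, limma adjusted p = 0.00103) and from 13.0 to 17.5 in GPD1 cells (0.40, adjusted p = 4.1e-05). The activating enzyme UBA7 reached at most 0.190 FPKM in any library and the main ligase HERC5 0.236, both under the minimum for testing. HERC6 was at 0.897 FPKM in GPD1 cells and at 0.542 with metformin, and was likewise not tested. TRIM25, a ligase for ubiquitin and ISG15, went in opposite directions. It rose from 9.74 to 15.4 FPKM in vector cells (0.60, adjusted p = 0.00102) and fell from 10.5 to 6.55 in GPD1 cells (-0.61, adjusted p = 9.3e-04), with an interaction of -1.22 (adjusted p = 2.4e-04). ARIH1 rose in vector cells (0.44, adjusted p = 0.00568) and had 0.10 in GPD1 cells (adjusted p = 0.470).

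USP18, the protease that removes ISG15 from proteins and blocks the type I receptor, is itself a standard interferon target. It was at 4.49, 4.45 and 4.35 FPKM in vector cells and at 1.61, 1.15 and 1.91 with metformin. It was at 4.44, 3.54 and 3.86 FPKM in GPD1 cells and at 2.19, 2.28 and 2.46 with metformin. It fell in both (log2 fold changes -1.10 and -0.58, limma adjusted p = 2.3e-06 and 3.7e-04), less in GPD1 cells (interaction 0.52, adjusted p = 0.0127). USP18 in the libraries with the highest ISG15 was below that of untreated cells of either kind.

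**Figure D4:**
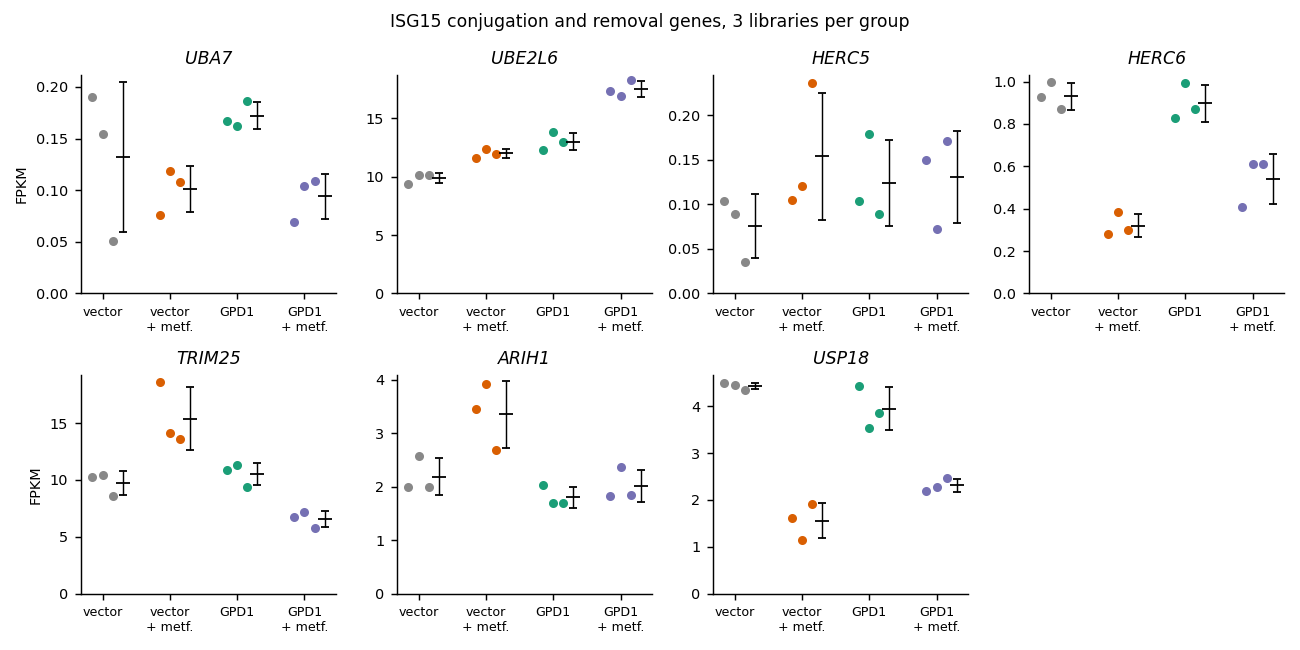
Level of the 7 genes that attach or remove ISG15 (FPKM, linear axes from 0) in the 12 libraries; points are libraries and bars are the mean ± SD of 3. UBE2L6 is highest in GPD1 cells with metformin (16.9 to 18.3 FPKM), TRIM25 is lowest there (5.76 to 7.15), and UBA7 and HERC5 stay under 0.25 FPKM.

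Of 33 tested effectors, genes that interferon is known to switch on, 7 were higher and 20 lower with metformin in vector cells, with a median of -0.44, where 31.3% of all genes were higher and 43.3% lower. In GPD1 cells 7 were higher and 18 lower, with a median of -0.36, beside 26.1% and 48.0% of all genes. With median-ratio factors the counts were 9 and 16 in vector cells and 11 and 14 in GPD1 cells. Of all genes called with these factors, 56.2% and 54.3% were higher. GPD1 against vector had 7 higher and 1 lower without metformin, and 15 higher and 5 lower under it, where 9.99% and 11.3% and then 25.0% and 35.0% of all genes were. OAS3, a sensor of double-stranded RNA, fell from 15.2 to 5.43 FPKM in vector cells (log2 fold change -1.33, limma adjusted p = 8.8e-10) and from 17.4 to 11.1 in GPD1 cells (-0.61, adjusted p = 3.7e-07). It was 2.05-fold higher in GPD1 than in vector cells under the drug (0.91, adjusted p = 4.5e-08). The kinase EIF2AK2 (PKR) fell with metformin from 8.64 to 4.69 FPKM in vector cells (-0.76, adjusted p = 4.9e-07). In GPD1 cells it fell from 11.1 to 8.29 (-0.39, adjusted p = 1.1e-04). It was higher in GPD1 than in vector cells without the drug (0.34, adjusted p = 0.00205) and under it (0.71, adjusted p = 1.9e-06). ZC3HAV1, an antiviral protein that degrades viral RNA, was lower in GPD1 than in vector cells under the drug, at 2.25 and 4.86 FPKM (-0.85, adjusted p = 2.0e-07). Without the drug its difference was 0.00 (adjusted p = 0.991).

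The classic targets of ISGF3 were looked up after the data had been seen. IFIT1, IFIT2, MX1, RSAD2, IFI27, IFI44, IFI44L, BST2 and CXCL10 were all under the minimum for testing. IFIT1, a protein that binds foreign RNA ends, was at 0.660 to 0.786 FPKM in vector cells and 0.873 to 1.09 in GPD1 cells, and at 0.0581 to 0.123 in the 6 libraries with metformin. MX1, a GTPase that blocks influenza virus, was at 0.0398 to 0.116 FPKM in all 12 libraries, and CXCL10, a chemokine, was listed at 0 in all of them. IFIT3 was lower with metformin in vector cells (log2 fold change -0.92) and in GPD1 cells (-0.71). It passed the minimum level for testing only through the untreated libraries, so its p-values are not given. IFIT5 fell by 1.38 and by 1.85 on the log2 scale (limma adjusted p = 1.1e-06 and 1.2e-07), and OAS1 rose by 0.35 and 0.33 (adjusted p = 0.00548 and 0.00797).

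DTX3L, a ligase induced by interferon gamma, was the one gene of the 89 that stood 1 log2 unit or more higher in GPD1 than in vector cells under metformin (1.03, limma adjusted p = 2.7e-07). Its level was 5.60 FPKM in vector cells, 1.64 with metformin, 7.61 in GPD1 cells and 4.38 with metformin, so it was lower with the drug in both; it was named after its values were seen. Of the 10 tested sensors and adaptors, 3 were higher and 3 lower with metformin in vector cells (all genes 31.3% and 43.3%). In GPD1 cells 1 was higher and 4 lower (all genes 26.1% and 48.0%). With median-ratio factors the GPD1 count was 4 and 4, where 54.3% of all genes called were higher. MAVS, the mitochondrial adaptor of RNA sensing, fell in both, from 11.3 to 3.89 FPKM and from 12.9 to 4.21 (-1.38 and -1.42, adjusted p = 1.6e-05 and 1.3e-05). TBK1, the kinase that activates IRF3 and IRF7, was at 8.23 FPKM in vector cells with metformin and at 3.29 in GPD1 cells with it (-1.10, adjusted p = 3.4e-07). Without metformin TBK1 was at 7.04 and 5.81 FPKM (-0.24, adjusted p = 0.0380).

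Of the genes of antigen presentation by class I molecules, those called in GPD1 cells were all higher with metformin; without mitochondrial genes in the totals, 1 was lower. Of 14 tested, 6 were higher and 6 lower with metformin in vector cells (all genes 31.3% and 43.3%), and 6 higher and 0 lower in GPD1 cells (all genes 26.1% and 48.0%). These counts depended on the scaling, and with median-ratio factors they were 7 and 2 in vector cells and 13 and 0 in GPD1 cells. The same factors moved all genes too, and 56.2% and 54.3% of all genes called were then higher. Between GPD1 and vector cells under metformin 9 were higher and 0 lower, with a median of 0.29, beside 25.0% and 35.0% of all genes. B2M, the light chain of class I molecules, rose from 9.19 to 22.3 FPKM in GPD1 cells (log2 fold change 1.20, limma adjusted p = 1.4e-06) and from 10.3 to 16.3 in vector cells (0.60, adjusted p = 3.0e-04), with an interaction of 0.60 (adjusted p = 0.00681). TAP1, the peptide transporter, rose to 19.1 FPKM in both (1.18 and 1.26, adjusted p = 4.9e-08 and 2.4e-08). In GPD1 cells these were the 2 genes of the 89 that were 1 log2 unit or more higher with metformin. HLA-E rose to 70.4 and 71.2 FPKM (0.90 and 1.17, adjusted p = 6.7e-08 and 7.4e-09).

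The neighbours of ISG15 on the chromosome were read beside it. HES4, a repressor of the Notch pathway, lies 965 bases from the outer end of the ISG15 locus (1001138) on the other strand. The RefSeq start of ISG15 used above lies farther from HES4, just after base 1013496. HES4 rose with metformin in both kinds of cell, from 3.24 to 58.1 FPKM in vector cells (log2 fold change 3.78, limma adjusted p = 6.9e-10) and from 2.68 to 51.8 in GPD1 cells (3.84, adjusted p = 1.1e-09). Its interaction was 0.06 (adjusted p = 0.803), and in vector cells it was 17.9-fold higher with metformin where ISG15 was 1.56-fold higher. AGRN, 5581 bases away on the other side and on the same strand, was at 43.4 FPKM in vector cells, 31.5 with metformin, 40.7 in GPD1 cells and 54.6 with metformin. It fell in vector cells (-0.45, adjusted p = 3.2e-04) and rose in GPD1 cells (0.42, adjusted p = 5.2e-04), with an interaction of 0.87 (adjusted p = 1.1e-04). Both neighbours were thus higher with metformin in GPD1 cells, HES4 19.3-fold and AGRN 1.34-fold in the means.

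The neighbours of other members were read in the same way. VAT1, 148 bases from IFI35 on the other strand, rose with metformin in vector cells (1.48, limma adjusted p = 2.4e-10) and in GPD1 cells (1.19, adjusted p = 1.5e-09), where IFI35 was lower. PHRF1, 330 bases from IRF7, was at 11.3 FPKM in GPD1 cells and 3.34 with metformin (-1.50, adjusted p = 2.2e-08). CDHR5, 565 bases from IRF7 on its other side, was at 0.307 FPKM in vector cells, 2.28 with metformin, 0.238 in GPD1 cells and 0.254 with metformin, so that, like IRF7, it stood apart in vector cells with metformin. REC8, the nearest gene after IRF9, was at 0.363, 0.607, 0.427 and 0.221 FPKM in the same order, which is also the order of the IRF9 means. CDHR5 and REC8 were under the minimum for testing. The labels do not say whether strand was kept in counting, so reads of genes that overlap on opposite strands cannot be told apart.

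The genes whose pattern was most like that of ISG15 were found among 1716 protein-coding genes that averaged 5 FPKM or more and had a spread of group means of at least 1 log2 unit. Pearson's r on log2(FPKM + 1) over the 12 libraries was 0.988 for PHLDA2, 0.987 for HSPB1, 0.976 for QPCT, 0.975 for GPC6 and 0.972 for RHOV. The 12 points share 4 group means and rest on 1 group that stands apart, so r is given as a description. HSPB1, a small heat shock protein, was at 151 FPKM in vector cells, 177 with metformin, 181 in GPD1 cells and 449 with metformin. PHLDA2, an imprinted gene of placental growth, was at 11.3, 14.1, 11.9 and 39.1 FPKM in the same order, and the small GTPase RHOV at 2.69, 2.98, 3.85 and 17.2. None of these 5 is on the lists of interferon genes, and none reached the 8.17-fold of ISG15 in GPD1 cells, RHOV being nearest at 4.46-fold. Among all genes tested, 36 had a higher log2 fold change with metformin in GPD1 cells than ISG15, which was chosen for its rise.

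**Figure D5:**
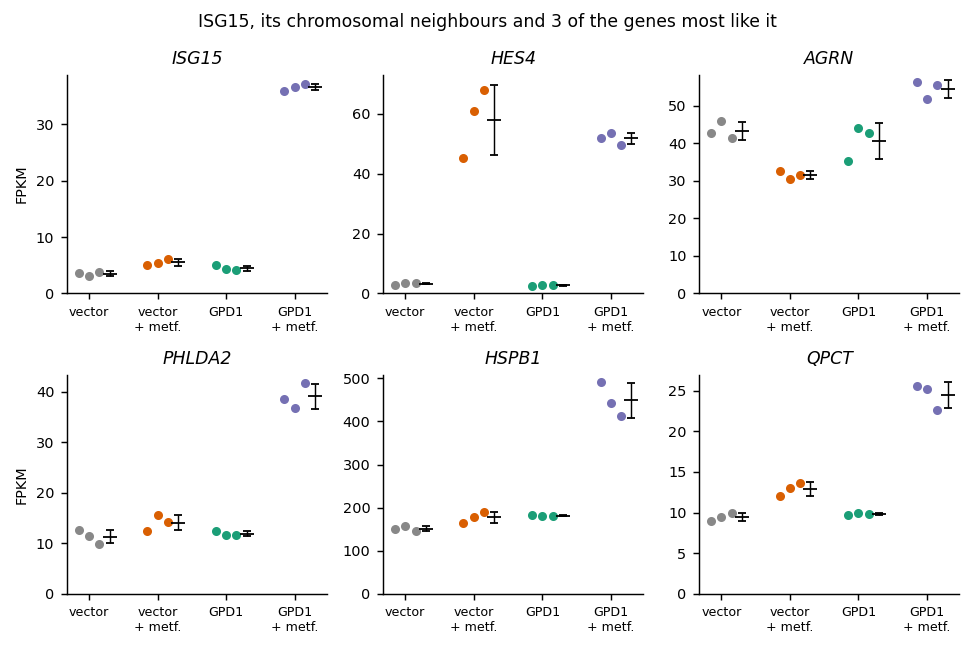
Levels (FPKM, linear axes from 0) in the 12 libraries of ISG15, its neighbours HES4 and AGRN, and 3 of the genes most like ISG15 by Pearson's r; points are libraries and bars are the mean ± SD of 3. HES4 is high in all 6 libraries with metformin (45.2 to 68.0 FPKM), while PHLDA2, HSPB1 and QPCT, like ISG15, stand out in GPD1 cells with metformin.

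Transcript length moved with the metformin differences. ISG15 (941 merged exon bases), IFI6 (865), IFI35 (1973), IFITM2 (1543) and IFITM3 (1348) fall in the shortest quintile of tested protein-coding genes (207 to 2834 bases). The median log2 fold change with metformin in GPD1 cells was 0.04 in that quintile and -0.37 in the longest, and in vector cells -0.03 and -0.24. With a length trend removed from each library, ISG15 with metformin in GPD1 cells was 2.46 in place of 2.78, IFI6 0.04 in place of 0.37, IFITM3 0.00 in place of 0.26 and IFITM2 0.30 in place of 0.53. STAT2 (6109 bases, in quintile 4) was -1.09 in place of -1.21. The ISG15 interaction was 2.15 in place of 2.26.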

How the data were processed

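Libraries of polyadenylated RNA were made with the NEBNext Ultra kit, per the labels' protocols. The submitters' processing notes name CASAVA 1.8, HISAT2 2.1.0, edgeR and the GRCh38 (hg38) build, with no role or parameter for any of them. The deposited table gives 1 FPKM value per gene and library for 58302 genes. The columns carry no unit label, and FPKM was read off the values, whose low steps scale with exon length and with the library; whether the authors counted reads or fragments is not given in the sources used here. Depth was estimated from the steps between low values, of which 64.6% to 69.5% were whole multiples (up to 10 steps, tolerance 0.02). Exon lengths came from GENCODE 29 and may differ from those the authors used, so read numbers are approximate.

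Differences were taken on log2(FPKM + 1) with limma 3.58.1 in R 4.3.3 (intensity trend, 4 group means in 1 fit over 12 libraries). Genes whose mean over the libraries reached 1 FPKM were tested (12607), with Benjamini-Hochberg adjustment over all of them and a threshold of 0.05. The method was tested on simulated data. All 9 genes, GPD1 and the ISG15 conjugation genes are named. So are, of each other list, up to 3 called genes per direction and comparison with the largest change and a mean of at least 5 FPKM, the nearest protein-coding neighbours, and the 6 genes most like ISG15; some results that these rules name are not reported here, and genes named outside this rule are marked as such in the text. The members and lists were chosen with earlier results of these data known. Sequences are from RefSeq (GRCh38.p14), matched by symbol for 7 of the 9 genes.

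Replicates of 1 group differed by 4.47 to 6.46 in chi-square per gene, so none was a copy. Same-numbered libraries did not deviate together (r from -0.07 to 0.06), and the numbers do not pair them. Alternatives were other scalings, a pseudocount of 0.1, other filters, a minimum log2 fold change of 1, a length trend removed, protein-coding genes alone, only the compared groups, a replicate block, and each library left out.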

Additional observations from a re-analysis of the deposited data

Results flagged for a closer look

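IFITM2 and IRF9 were picked out because every library with metformin lay on 1 side of every library without it in vector cells and on the other side in GPD1 cells. The difference between the 2 effects was 0.95 on the log2(FPKM + 1) scale for IFITM2 and -0.67 for IRF9, and it was not tested. IRF9 shares its locus with AL136295.5, and IFITM2 shares its own with IFITM1.

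The remaining results were picked out because the effect of metformin differed between GPD1 and vector cells by the interaction term of limma (Benjamini-Hochberg adjusted p under 0.05). Passing it was common, with 45.9% of all genes tested (19.1% higher and 26.8% lower). Of the 89 listed genes, 25 were higher and 19 lower, so passing is not particular to interferon genes. Among receptors and signalling genes the interaction was 0.53 for IFNGR2, 0.32 for IFNAR1, -0.51 for IFNGR1, 0.71 for IRF2 and 0.29 for JAK1. It was -0.92 for IRF2BP2 and -0.74 for IRF2BP1, both corepressors that bind IRF2. Among negative regulators it was 0.23 for PTPN11, -1.06 for PIAS4, -0.54 for SOCS3 and -0.54 for PTPN1. Among the genes that attach or remove ISG15 it was -1.22 for TRIM25 and 0.52 for USP18.

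Among sensors and adaptors the interaction was -0.86 for TBK1, -0.39 for TICAM1 and 0.40 for DDX58, which, like DTX3L below, was named after its values were seen. Among effectors it was 0.73 for OAS3, 0.48 for TRIM14, 0.37 for EIF2AK2, 0.65 for DTX3L, -0.85 for ZC3HAV1, -0.51 for NUB1, -0.45 for ADAR and -0.47 for IFIT5. The IFIT5 value had an adjusted p of 0.0374 and missed the threshold in 13 of the settings tried, 10 of which leave out 1 library. In GPD1 cells with metformin IFIT5 averaged 0.774 FPKM and DDX58 1.01, under or near the minimum for testing. In antigen presentation it was 0.60 for B2M, 0.53 for TAPBP and -0.28 for HLA-E, the last not past the threshold with median-ratio factors (adjusted p = 0.0735) or upper-quartile factors (adjusted p = 0.146). Of the neighbours on the chromosome, AGRN had 0.87, PHRF1 -1.30, RPL27 0.28 and VAT1 -0.30.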

How the results depend on the processing

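The direction of ISG15 was the same in all comparisons and settings tried, and its size moved. With metformin in vector cells its log2 difference was 0.52, and 0.72 with median-ratio factors or 0.31 with a length trend removed. In GPD1 cells it was 2.78, and it became 3.09 with median-ratio and 2.91 with upper-quartile factors, 3.01 with a pseudocount of 0.1 and 2.46 with a length trend removed. For GPD1 against vector under metformin it was 2.65, 2.67, 2.72 and 2.41 in that order, against 2.54. The interaction was 2.39 with upper-quartile factors, 2.38 with a pseudocount of 0.1 and 2.15 with a length trend removed, against 2.26. Leaving out 1 library at a time gave 0.45 to 0.58 with metformin in vector cells, 2.73 to 2.85 in GPD1 cells, 2.48 to 2.61 for GPD1 against vector under metformin, 0.21 to 0.33 without it, and 2.2 to 2.33 for the interaction.

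Counts of calls moved with the filter and with a minimum size. Without a filter 14315 genes were called with metformin in vector cells, where 9411 were called with it. With a mean of at least 5 FPKM the counts were 4373 with metformin in vector cells, 4361 in GPD1 cells, 1628 and 3750 for GPD1 against vector without and under metformin, and 3029 for the interaction. With a minimum log2 fold change of 1 they were 2511, 2161, 123, 949 and 863 in that order. Fewer genes can pass under both settings by construction. Of the 89 interferon genes beyond the 9, 43 had a mean of at least 5 FPKM. Of these, 17 were called higher and 16 lower with metformin in vector cells, and 16 and 21 in GPD1 cells. GPD1 against vector had 11 higher and 5 lower without metformin, and 16 and 15 under it. The interaction had 12 higher and 13 lower. Over all genes called at that level, 51.4%, 48.0%, 49.9%, 47.5% and 45.3% were higher in that order. A minimum log2 fold change of 1 left 7 and 13, 2 and 7, 0 and 0, 1 and 3, and 0 and 2 in the same order of comparisons. Of all genes called with that minimum, 43.0%, 29.5%, 53.7%, 20.1% and 17.0% were higher. Median-ratio factors gave 40 higher with metformin in GPD1 cells, and 5 lower for GPD1 against vector without metformin, as did no filter. Without 1 library at a time the latter count lay between 4 and 9, with 8 from all libraries. It was 4 or 5 without any 1 of the 6 untreated libraries. The cause was not tested.

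Median-ratio factors reversed 5 differences with metformin. They were PIAS3 (0.01) and PHRF1 (0.02) in vector cells, and SOCS3 (0.17), PTPN11 (0.02) and GPD1 (0.10) in GPD1 cells; the cause was not tested. Of the values for single genes, leaving out a library kept 3621 on their side of the threshold, moved 27 past it and took 72 below it.

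With a replicate block, 9333 genes were called with metformin in vector cells, 9253 in GPD1 cells, 2374 and 7446 for GPD1 against vector without and under metformin, and 5643 for the interaction. IFITM2 without metformin had an adjusted p of 0.0125 (limma) with the block. With 3 libraries a group and about 2 to 9 reads behind the vector values of IFITM1, smaller differences were not detectable at this depth.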
